A study of Mus musculus with 32 samples.

Results

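HF/HF offspring are male C57Bl/6J mice whose father and mother had both eaten a high-fat diet (HF, 45% of energy from fat) and which were themselves weaned onto the HF diet. Their livers were compared between 28 and 12 weeks of age, with 9 mice of 28 weeks and 7 mice of 12 weeks. These 16 mice were chosen by the group and age in the labels, out of 32 mice in the series. The other 16 were LF/HF offspring of the same strain, sex, postweaning diet and ages, 9 of 28 weeks and 7 of 12 weeks, whose parents had eaten a low-fat chow (LF, 9% of energy from fat). The parental diets differed in more than fat: protein and carbohydrate gave 20% and 35% of energy in HF and 33% and 58% in LF. Both diets began 6 weeks before mating and lasted through pregnancy and lactation. Every mouse of both ages therefore ate the HF diet after weaning, and age goes together with the time spent on it, so that the effect of age and that of a longer HF diet cannot be told apart. The diet was given to the parents, and the litter of each offspring is not given in the sources used here, so the p-values below measure the spread between these mice and could be too small where mice shared a litter. Each liver was taken from a different mouse and measured once, on a whole transcript array that reads RNA by many probes along each gene. Values below are log2 intensities after normalization, and each difference is the mean at 28 weeks minus the mean at 12 weeks on the log2 scale.

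The liver of an adult male mouse is set by several schedules at once. Growth hormone is released in pulses in males and more evenly in females, and through the transcription factor STAT5B this pattern keeps many hepatic enzymes, pheromone-binding proteins and complement proteins at different levels in the sexes. A circadian clock in each hepatocyte turns lipid, bile acid and heme synthesis up and down over the day. In this clock BMAL1 (gene Arntl) and CLOCK drive the Per, Cry, Nr1d and Dbp genes. The products of the Per, Cry and Nr1d genes in turn hold BMAL1 and CLOCK back. With fat feeding and age, lipid synthesis, fatty acid oxidation, resident macrophages and protein folding in the endoplasmic reticulum are the processes most often followed in this organ.

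The arrays were similar in scale, with a median intensity per array of 8.41 to 8.89 at 28 weeks and 8.37 to 9.39 at 12 weeks on the linear scale, and hepatocyte markers were high and even. The 11 hepatocyte markers measured, among them Alb, Ttr and Apoa1, averaged 12.23 to 12.32 per mouse at 28 weeks and 12.26 to 12.33 at 12 weeks, and none met either call rule given below. HF/HF replicate 3 of 12 weeks stood apart from the other mice. It had 378 genes more than 1 log2 unit from its group mean, against 55 to 115 in the other 12-week HF/HF mice. Its mean over 20 skeletal muscle markers was 4.01, beside 2.36 to 2.82 in the others of its group, its mean over 44 cell cycle genes 3.95 beside 2.77 to 3.01, and its mean over 21 markers of recruited macrophages 5.51 beside 3.82 to 4.21. Where the count or the printed median of a list moved by over 1.5 times without this mouse, both values are given. The groups also differed in clock phase, taken as the mean of Arntl, Clock, Npas2 and Cry1 minus the mean of 10 clock genes of the opposite phase. It lay between -2.66 and -1.13 (median -1.79) at 28 weeks and between -2.15 and 0.65 (median -0.40) at 12 weeks, with the 12-week replicates 2, 3 and 7 at 0.58, 0.35 and 0.65. In LF/HF offspring it lay between -2.75 and -0.75 at 28 weeks and between -2.50 and 0.02 at 12 weeks. The time of day at which the livers were taken is not given in the sources used here. By the series in their names the arrays form 2 sets, called plates here, which held 4 and 5 of the 28-week and 4 and 3 of the 12-week HF/HF mice.

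Of 21113 genes tested, 10 (0.0474%) differed between 28 and 12 weeks in HF/HF offspring at an adjusted p under 0.05 from limma (Benjamini-Hochberg over all genes tested), 3 higher (0.0142%) and 7 lower (0.0332%). By the criterion of the study, an unadjusted P under 0.05 with a fold change over 1.2 in either direction, 865 genes (4.1%) differed, 372 higher (1.76%) and 493 lower (2.34%). Without the fold change, 1520 genes (7.2%) reached an unadjusted P under 0.05, and 1056 would do so if no gene differed. Over all genes the median difference was 0.00, and 10812 genes (51.2%) lay above 0 and 48.8% below. Within plate 1 alone 560 of the 21113 genes were higher and 604 lower by the criterion, and within plate 2 alone 494 and 603. List counts within a plate, given below, stand beside these numbers. Between 4 and 15 genes passed the adjusted p when single HF/HF mice were left out, 4 of them without replicate 7 of 12 weeks, 5 without replicate 4 of 12 weeks and 15 without replicate 2 of 12 weeks. Below, "rose" and "fell" are used of genes past the adjusted p, and "higher" and "lower" with the named criterion or with the values. The gene lists below were chosen with earlier results of these data known. Their counts beside the shares of all genes are therefore descriptions and no independent support for a list.

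The genes that rose at 28 weeks included Tox, a nuclear factor known from T cell development, and the cadherin gene Cdh18. Tox lay between 4.72 and 5.64 at 28 weeks and between 3.86 and 4.78 at 12 weeks, and 8 of the 9 older mice were above every younger mouse. It rose by 0.91 (SE 0.14, adjusted p = 0.00403 from limma). Cdh18, at low intensity, lay between 2.91 and 3.97 at 28 weeks and between 2.45 and 3.03 at 12 weeks, a difference of 0.68 (SE 0.14, adjusted p = 0.0384 from limma), and 7 of the 9 older mice were above every younger mouse.

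The 7 genes that fell were Selenbp2, Tnfaip2, Cdh1, Itga5, C8b, Hsph1 and Mpzl1. Selenbp2, a selenium-binding protein of the hepatocyte cytosol that is more abundant in male than in female liver, lay between 7.41 and 9.97 (median 8.68) at 28 weeks and between 9.28 and 10.83 (median 10.12) at 12 weeks. Only 1 older mouse lay inside the range of the younger ones, and the difference of -1.74 (SE 0.30, adjusted p = 0.00713 from limma) is a ratio of 0.299. Tnfaip2, a gene that tumor necrosis factor induces, lay between 4.82 and 5.80 (median 5.13) at 28 weeks and between 5.90 and 6.83 (median 6.23) at 12 weeks, without overlap, a difference of -1.07 (SE 0.18, adjusted p = 0.00503 from limma). Cdh1 encodes E-cadherin, which joins hepatocytes, chiefly near the portal vein, and bile duct cells. It lay between 5.94 and 7.38 (median 6.93) at 28 weeks and between 7.58 and 8.33 (median 7.75) at 12 weeks, again without overlap, and the difference was -0.95 (SE 0.18, adjusted p = 0.0223 from limma). The fibronectin receptor subunit Itga5 lay between 4.88 and 5.42 at 28 weeks and between 5.14 and 6.07 at 12 weeks, where 6 of 7 younger mice were above every older one (-0.66, adjusted p = 0.0121 from limma). C8b, a chain of the terminal complement complex, differed by -0.56 (adjusted p = 0.0223 from limma), Hsph1, a chaperone of the HSP110 family, by -0.56 (adjusted p = 0.0227 from limma), and Mpzl1, a cell surface glycoprotein, by -0.61 (adjusted p = 0.0262 from limma). In each of these 3 genes 8 of the 9 older mice lay below every younger mouse.

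**Figure D1:**
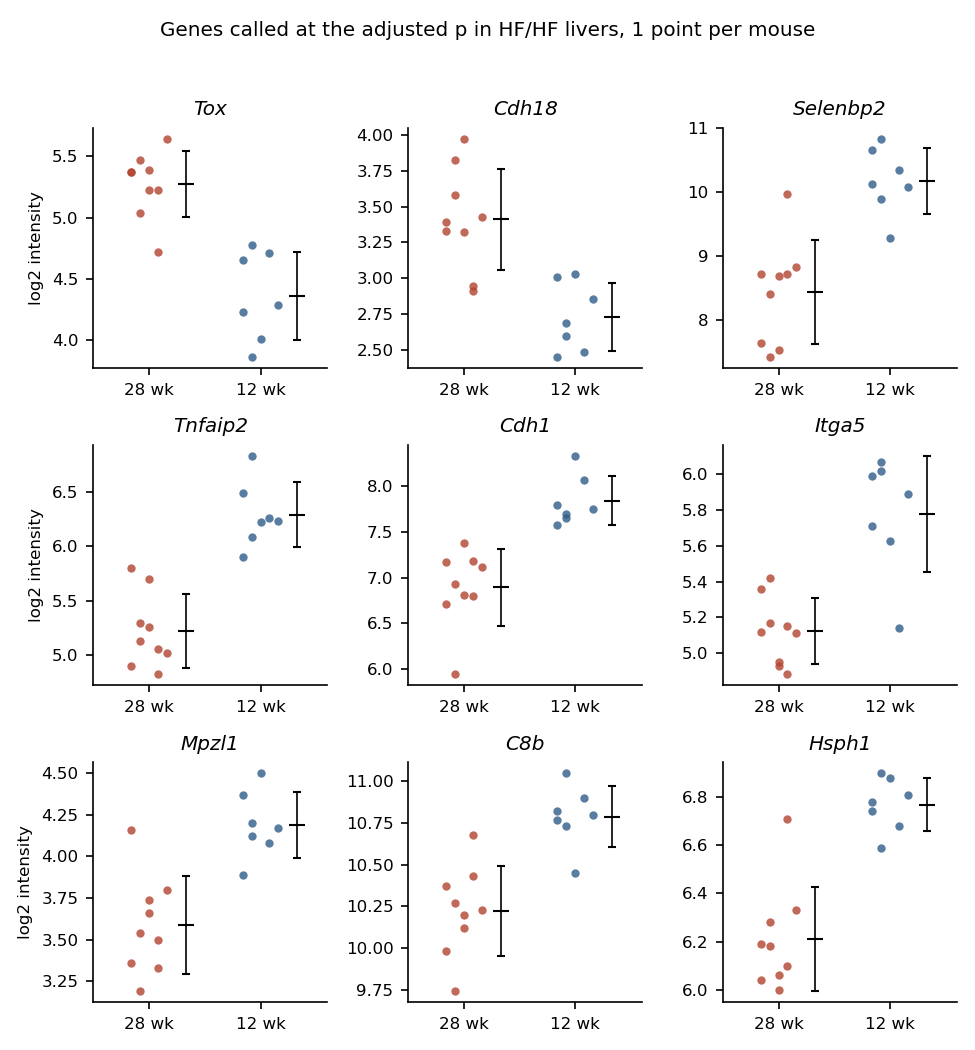
Log2 intensity (y axis) of 9 genes past the adjusted p in HF/HF livers of 28 weeks (left of each panel) and 12 weeks (right), 1 point per mouse, with the mean and SD of the 9 and 7 mice beside the points. The y axes differ between panels and do not start at 0. The points of the 2 ages do not overlap in Tnfaip2 and Cdh1.

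These calls differed in how far they rested on single mice. Tox, Tnfaip2 and Selenbp2 passed the adjusted p without any 1 of the 16 mice, with largest values of 0.0265, 0.0336 and 0.0431. The call of Itga5 ended without replicate 7 of 12 weeks (adjusted p = 0.0569 from limma), and that of Cdh1 without replicate 3, 4 or 7 of 12 weeks (largest adjusted p = 0.0639 from limma). That of C8b ended without replicate 1 of 28 weeks or replicate 1, 4, 5 or 7 of 12 weeks (largest 0.0991). The calls of Hsph1 (largest adjusted p = 0.0964 from limma) and Mpzl1 (0.0884) each ended without replicate 1, 3, 4, 5 or 7 of 12 weeks and without replicates 1, 3, 7 or 8 of 28 weeks for Hsph1 and 1, 2, 4 or 7 for Mpzl1. That of Cdh18 ended without any 1 of 12 mice, which were replicates 1, 2, 4, 5 and 7 of 12 weeks and 1, 2, 3, 5, 6, 7 and 8 of 28 weeks (largest adjusted p = 0.142 from limma). On both plates the differences of all 9 genes given so far kept their direction, for example -1.93 and -1.66 for Selenbp2 and -0.97 and -1.16 for Tnfaip2. With the clock phase as a covariate the differences were 0.71 for Tox, -0.94 for Tnfaip2 and -1.65 for Selenbp2, each with an adjusted p of 0.24 from limma.

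In 16 genes the 2 ages did not overlap, with every older mouse above every younger one in 6 genes (0.0284% of those tested) and below in 10 (0.0474%). The higher ones included Rdh9 and Rdh16, both of the retinol dehydrogenase family, Ddx46, an RNA helicase of the spliceosome, Mrps23, a protein of the mitochondrial ribosome, and the unnamed 1810058I24Rik. Rdh9 lay between 8.10 and 8.37 at 28 weeks and between 7.25 and 7.90 at 12 weeks (difference 0.60, adjusted p = 0.0690 from limma), and Rdh16 between 6.71 and 7.05 at 28 weeks and between 5.95 and 6.65 at 12 weeks (0.56, adjusted p = 0.241 from limma). The older mice were close together in both, with an SD of 0.09 for Rdh9 at 28 weeks and 0.21 at 12 weeks. The differences of Ddx46 (0.25) and Mrps23 (0.22) were below a 1.2-fold change, although no mouse broke the order. Besides Tnfaip2 and Cdh1 the lower ones were the tight junction gene Cldn1, Nucb2, the precursor of the satiety peptide nesfatin, Manf and Syvn1, which act in the endoplasmic reticulum, the lysophosphatidic acid receptor Lpar6, the zinc finger gene Zkscan1, the elongation factor subunit Eef1b2 and 9530068E07Rik. Cldn1 lay between 7.78 and 8.83 at 28 weeks and between 8.96 and 9.68 at 12 weeks (-0.74, adjusted p = 0.0831 from limma), and Nucb2 between 3.06 and 3.78 at 28 weeks and between 3.81 and 4.62 at 12 weeks (-0.63, adjusted p = 0.200 from limma). Of the genes given here, Tnfaip2 and Cdh1 passed the adjusted p and the others did not.

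Besides Selenbp2, genes with large differences included drug- and fatty acid-metabolizing P450 genes, immunoglobulins, rhythmic genes, acute-phase genes, Egr1 and H3c14, and mice of 1 age often differed as much as the ages did. Cyp2b9, a P450 that adult males normally keep low, lay between 4.60 and 8.91 (median 6.99) at 28 weeks and between 2.21 and 6.69 (median 4.06) at 12 weeks. In both ages the mice spread over more than 4 log2 units, the difference of 2.22 (SE 0.64, unadjusted P = 0.00143 from limma) did not pass the adjusted p, and probes of Cyp2b9 can also bind RNA of its close relatives. Cyp4a14, a fatty acid omega-hydroxylase under PPARα, lay between 8.30 and 10.94 (median 9.96) at 28 weeks and between 6.21 and 9.61 (median 8.02) at 12 weeks (1.59, unadjusted P = 0.00173 from limma). Mfsd2a, a transporter of lysophospholipids that carry polyunsaturated fatty acids, lay between 6.88 and 9.43 at 28 weeks and between 5.28 and 8.33 at 12 weeks (1.39, unadjusted P = 0.00111 from limma). All 9 older mice were above the mean of the younger ones in each of these 3 genes. Aacs, which turns acetoacetate into a precursor of lipid synthesis, lay between 5.69 and 7.66 at 28 weeks and between 4.81 and 5.95 at 12 weeks (1.16, unadjusted P = 0.000726 from limma). Here 7 of the 9 older mice were above every younger one.

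Among the lowest differences were those of the acute-phase genes Saa1 and Saa2, described with the inflammatory genes below, the immediate early gene Egr1, the histone gene H3c14 and Igfbp1, a binding protein of insulin-like growth factors that insulin suppresses. Egr1 lay between 2.98 and 5.96 (median 4.38) at 28 weeks and between 4.74 and 6.60 (median 5.72) at 12 weeks (-1.41, unadjusted P = 0.000372 from limma). Igfbp1 lay between 5.89 and 7.24 (median 6.25) at 28 weeks and between 6.17 and 9.62 (median 7.55) at 12 weeks (-1.22, unadjusted P = 0.00132 from limma). In Igfbp1 4 of the younger mice were above every older one. H3c14 lay between 2.70 and 4.92 at 28 weeks and between 4.05 and 6.96 at 12 weeks (-1.55), and histone H3 genes share most of their sequence. Tff3, a secreted trefoil peptide, differed by -1.11 and no longer met the criterion without replicate 3 of 12 weeks (-0.77, unadjusted P = 0.0588 from limma). Rnase2a differed by -1.02 and lost its call without replicate 7 of 12 weeks (unadjusted P = 0.0840 from limma), and Cib3, a calcium-binding protein, differed by -0.99.

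Genes that are male-biased in mouse liver were mostly lower at 28 weeks, and 7 female-biased genes were higher. Of 28 male-biased genes measured, 25 lay below 0, 9 were lower by the study criterion, beside 2.34% of all genes, and none was higher. The median of the list was -0.23, beside 0.00 over all genes. Its mean per mouse lay between 7.75 and 8.52 (median 8.21) at 28 weeks and between 7.60 and 8.97 (median 8.60) at 12 weeks. Replicate 3 of 12 weeks was the lowest mouse of all 16, and the other 6 younger mice, at 8.49 or above, were above 8 of the 9 older ones. Without replicate 3, 15 genes were lower and the median was -0.35. Without replicate 8 of 28 weeks or replicate 2 of 12 weeks 1 gene was higher. Selenbp2 and C8b are members of the list. Elovl3, which elongates saturated fatty acids, lay between 8.68 and 9.82 at 28 weeks and between 9.24 and 10.84 at 12 weeks (-0.74, unadjusted P = 0.00492 from limma), where 4 younger mice were above every older one. The others were the terminal complement genes C6 (-0.39) and C8a (-0.34), the glucuronosyltransferases Ugt2b1 (-0.27) and Ugt2b38 (-0.29), the glutathione transferase Gstp1 (-0.51) and the organic anion transporter Slc22a7 (-0.69). Slc22a7 ended without any 1 of 9 mice (largest unadjusted P = 0.106 from limma), Ugt2b38 without any 1 of 8 (0.110), Ugt2b1 without any 1 of 6, where its fold change was below 1.2, and C8a without replicate 2 of 28 weeks. Among LF/HF offspring 16 members of this list were lower, beside 3.92% of all genes, and 1 was higher, beside 3.31%, with a median of -0.45, and 1 member met the study criterion for a difference between the 2 age differences (4.19% of all genes did).

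Of 32 female-biased genes measured, 7 were higher by the study criterion, beside 1.76% of all genes, none was lower, and 23 lay above 0 (median 0.20). The mean of the list lay between 3.76 and 4.47 at 28 weeks and between 3.61 and 4.14 at 12 weeks, with overlap. Besides Cyp2b9 and Cyp4a14 these included the flavin monooxygenase Fmo2 (0.45), the acyl-CoA thioesterase Acot3 (1.07), the peroxisomal fatty acid transporter Abcd2 (0.69) and the hydroxyacid oxidase Hao2 (0.30). Acot3 lay between 3.52 and 6.31 at 28 weeks and between 2.88 and 4.11 at 12 weeks, and 6 of the 9 older mice were above every younger one. On plate 1 and plate 2 Cyp2b9 differed by 3.16 and 1.1, and on plate 2 alone 2 members were higher and 1 lower. Without replicate 2 of 28 weeks 4 were higher, without replicate 3 of 28 weeks 5 were higher and 2 lower, and without replicate 2 of 12 weeks 6 were higher and 2 lower. Under the clock phase as a covariate 3 were higher and the median was 0.10. Fmo2, Abcd2 and Hao2 lost their calls without any 1 of 7, 6 and 7 mice (largest unadjusted P = 0.10, 0.0645 and 0.0988 from limma). The LF/HF counts were 11 higher, beside 3.31% of all genes, and none lower, with a median of 0.26.

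**Figure D2:**
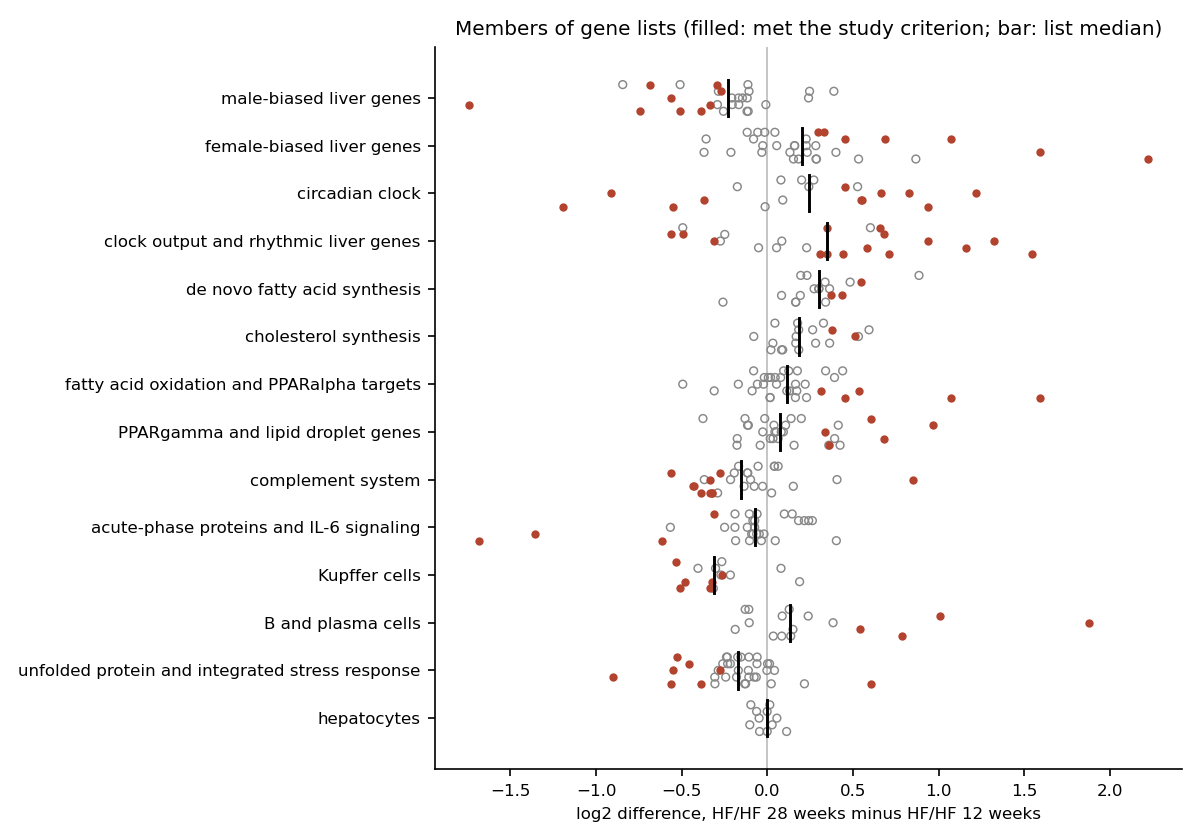
Log2 difference of HF/HF livers, 28 weeks minus 12 weeks (x axis), for every measured member of 14 gene lists (rows). Each point is 1 gene, filled where it met the study criterion, and the bar is the median of the list. Male-biased genes and Kupffer cell genes lie mostly left of 0, clock output genes mostly right of it, and the 11 hepatocyte markers close to 0.

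The circadian genes differed between the ages, with repressors of the clock and targets of BMAL1 higher and BMAL1 itself lower at 28 weeks. Of 19 clock genes measured, 7 were higher and 4 lower by the study criterion, beside 1.76% and 2.34% of all genes (median 0.24). On plate 1 alone 6 were higher and 4 lower (median 0.34), and on plate 2 alone 1 was higher and 2 were lower (median 0.10). Without replicate 3 of 12 weeks 5 were higher and 4 lower (median 0.13). The higher ones were Dbp (1.22) and Tef (0.45), activators of D-box genes, Per1 (0.94), Per2 (0.54) and Per3 (0.66), and the repressors Bhlhe40 (0.55) and Bhlhe41 (0.82). The lower ones were Arntl (-1.19), its partners Clock (-0.37) and Npas2 (-0.91), and Nfil3 (-0.55), the repressor of D-box genes. Arntl lay between 2.92 and 4.27 (median 3.91) at 28 weeks and between 3.75 and 5.91 (median 5.01) at 12 weeks (unadjusted P = 0.000289 from limma). Dbp lay between 7.66 and 9.09 (median 8.43) at 28 weeks and between 5.68 and 8.74 (median 7.26) at 12 weeks (unadjusted P = 0.00175 from limma). The younger mice were not alike: replicates 4 and 6 had Arntl at 3.91 and 3.75 and Dbp at 8.74 and 8.68, inside the range of the older mice, whereas replicates 2, 3 and 7 had Arntl at 5.58 to 5.91 and Dbp at 5.68 to 6.33.

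Genes that the clock drives were mostly higher as well. Of 23 clock output genes measured, 12 were higher and 3 lower by the study criterion, against the same shares of all genes, with a median of 0.35. Each plate alone gave 7 higher genes, with 3 lower on plate 1 and 1 on plate 2. Their mean lay between 6.04 and 6.64 at 28 weeks and between 5.69 and 6.06 at 12 weeks. Usp2, a deubiquitinase, lay between 5.37 and 7.39 (median 5.96) at 28 weeks and between 3.71 and 5.81 (median 4.30) at 12 weeks (1.54, unadjusted P = 0.000691 from limma). Alas1, the rate-limiting enzyme of heme synthesis in the liver, lay between 7.86 and 10.49 at 28 weeks and between 6.91 and 8.95 at 12 weeks (1.32, unadjusted P = 0.00340 from limma), and Rgs16, a regulator of G protein signaling, between 7.70 and 9.30 at 28 weeks and between 5.86 and 8.48 at 12 weeks (1.16, unadjusted P = 0.00415 from limma). In all 3 genes every older mouse was above the mean of the younger ones, and the 12-week replicates 4 and 6 had Usp2 at 5.63 and 5.81, inside the range of the older mice. The remaining members past the criterion were Noct (0.71), Lpin1 (0.68), Upp2 (0.66), Por (0.58), Pfkfb3 (0.44), Nampt (0.35), Fkbp5 (0.35) and Tspan4 (0.31), besides Per1, with Lonrf3 (-0.56), Slc45a3 (-0.49) and Leo1 (-0.31) lower. Without replicate 4 of 12 weeks 13 were higher and 5 lower. With the clock phase as a covariate no gene of this list met the criterion and its median was 0.07. The clock list then held 1 lower gene and no higher one. Genes of the clock list make up the phase, so the loss of their calls was built into this fit. The phase also differed between the ages, so this covariate takes up part of the age difference in any gene that follows it. Under the covariate Usp2 differed by 0.26, Alas1 by 0.78 and Rgs16 by 0.28. None of the 19 clock genes met the criterion in LF/HF offspring (median 0.05). Of the 23 output genes 3 were higher there and 2 lower (median -0.05), beside 3.31% and 3.92% of all genes. For the difference between the 2 age differences, 2 clock and 3 output genes met the criterion, beside 4.19% of all genes. None passed the adjusted p, for example Dbp with 1.03 (unadjusted P = 0.0504 from limma) and Rgs16 with 1.21 (unadjusted P = 0.0295 from limma). Without single mice the call of Per2 ended in 8 cases (largest unadjusted P = 0.122 from limma) and that of Tef without replicate 3 or 7 of 12 weeks (largest 0.0787).

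**Figure D3:**
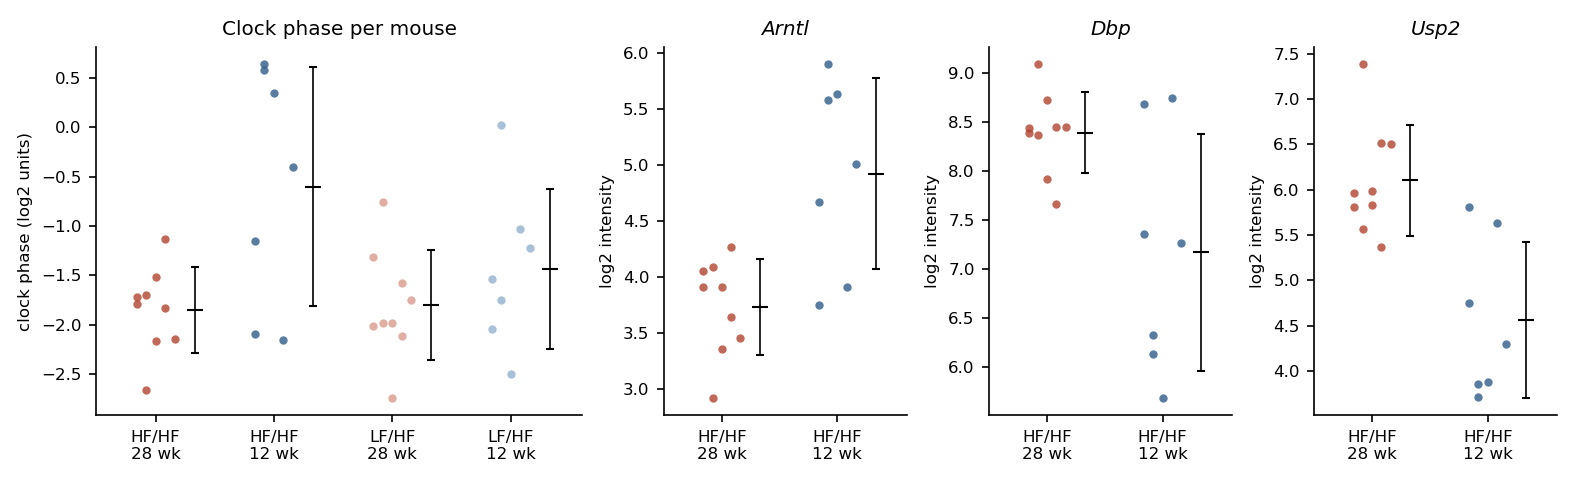
Clock phase per mouse (left panel, y axis in log2 units, all 4 groups) and log2 intensity of Arntl, Dbp and Usp2 in HF/HF livers of 28 and 12 weeks, 1 point per mouse with mean and SD. The 9 HF/HF mice of 28 weeks lie between -2.66 and -1.13, and the 7 of 12 weeks reach from -2.15 to 0.65.

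The promoters of some of these genes carry elements through which the clock is known to act, and the windows of 4 genes are shown because each gene met the criterion and its window holds such an element. The 250 bases before the start of each gene, from RefSeq on build GRCm38.p6, were searched on both strands for the E-box CACGTG, bound by BMAL1 and CLOCK, the D-box TTATGTAA, bound by DBP, TEF and NFIL3, and the RORE TAGGTCA, bound by NR1D1 and the ROR receptors. Of the 19 clock genes 16 had a window, and 5 of these (31.2%) held the E-box, beside 6.86% of 27025 genes in all. They were Per1, Bhlhe41, Tef, Cry1 and Ciart, of which Per1, Bhlhe41 and Tef were higher at 28 weeks. Of the 23 output genes 20 had a window and 6 (30%) held the E-box. They were Tspan4, Pfkfb3, Fkbp5 and again Per1, which were higher, Lonrf3, which was lower, and Sgk1, which was not among the called genes. Per3 held the D-box, found in 0.977% of all genes, at 2 places, 205 and 158 bases before its start. Nfil3, which was lower, held the RORE, found in 2.55% of all genes, 12 bases before its start and on the reverse strand. In the output list the windows of Slc45a3 and Leo1 held the RORE. A match is a description of the letters and shows no binding. The windows below are printed 5′ to 3′ on the strand of the gene, with the matching letters in capitals. They are chr11:69098699-69098948 (+) for Per1 and chr6:145865421-145865670 (-) for Bhlhe41, each with 1 E-box, chr4:151044666-151044915 (-) for Per3 with 2 D-boxes, and chr13:52981040-52981289 (-) for Nfil3 with the RORE as its reverse complement.
Per1: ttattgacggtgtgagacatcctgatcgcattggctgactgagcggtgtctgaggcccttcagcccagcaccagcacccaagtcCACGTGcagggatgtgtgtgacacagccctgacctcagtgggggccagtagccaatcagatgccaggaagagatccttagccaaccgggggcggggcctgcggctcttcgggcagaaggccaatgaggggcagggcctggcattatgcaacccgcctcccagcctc
Bhlhe41: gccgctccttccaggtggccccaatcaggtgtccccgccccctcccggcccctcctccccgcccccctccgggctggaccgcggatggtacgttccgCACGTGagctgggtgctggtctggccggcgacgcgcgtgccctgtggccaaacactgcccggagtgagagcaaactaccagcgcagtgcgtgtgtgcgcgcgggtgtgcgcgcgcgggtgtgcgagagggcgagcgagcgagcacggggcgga
Per3: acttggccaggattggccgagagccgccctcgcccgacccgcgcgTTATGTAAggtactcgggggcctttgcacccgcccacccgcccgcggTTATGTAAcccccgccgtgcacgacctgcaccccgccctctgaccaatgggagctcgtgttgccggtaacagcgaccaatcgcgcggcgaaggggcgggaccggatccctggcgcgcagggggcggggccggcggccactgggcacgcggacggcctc
Nfil3: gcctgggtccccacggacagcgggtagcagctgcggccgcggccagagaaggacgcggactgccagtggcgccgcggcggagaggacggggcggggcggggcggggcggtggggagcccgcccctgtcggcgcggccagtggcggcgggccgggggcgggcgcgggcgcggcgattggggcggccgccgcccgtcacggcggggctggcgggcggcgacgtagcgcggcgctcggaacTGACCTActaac

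Genes of lipid synthesis and lipid handling were somewhat higher at 28 weeks, with few members past the criterion and with calls that depended on single mice. Of 18 genes of de novo fatty acid synthesis 17 lay above 0 (median 0.30), and 3 were higher by the criterion, beside 1.76% of all genes. These were Me1, a source of NADPH (0.55, unadjusted P = 0.0188 from limma), Srebf1, whose product SREBP-1 drives the pathway (0.44, unadjusted P = 0.0410 from limma), and Scd1, the stearoyl-CoA desaturase (0.37, unadjusted P = 0.0407 from limma). Fasn, the fatty acid synthase, differed by 0.48 and Thrsp by 0.88 without meeting it. Srebf1 lay between 7.59 and 8.95 at 28 weeks and between 7.38 and 8.57 at 12 weeks, and the groups overlapped over most of their range. Without replicate 7 of 12 weeks no gene of the list met the criterion, without replicate 1, 2 or 3 of 28 weeks or replicate 1 of 12 weeks 1 did, and without replicate 9 of 28 weeks or replicate 4 of 12 weeks 6 did. With the clock phase as a covariate none did, and the median was 0.06. On plate 1 and plate 2 the list had 7 and 3 higher genes and medians of 0.48 and 0.10, and without replicate 3 of 12 weeks 1 gene was lower beside 3 higher. Of 19 genes of cholesterol synthesis 18 lay above 0 (median 0.18), and 2 were higher by the criterion, beside the same 1.76% of all genes. Without replicate 3 of 12 weeks the median was 0.04, and on plate 1 and plate 2 it was 0.46 and 0.02, with 1 gene past the criterion on each. Without replicate 7 of 12 weeks 1 gene met it, and with the clock phase as a covariate none did and the median was 0.04. In LF/HF offspring 3 genes of fatty acid synthesis were higher and 1 was lower (median 0.26). There 8 genes of cholesterol synthesis were higher and none was lower (median 0.35). Of all genes 3.31% were higher and 3.92% lower in LF/HF offspring.

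Of 30 genes of lipid droplets and PPARγ, 5 were higher (1.76% of all genes were) and none was lower (median 0.07). Fitm1, which partitions triglyceride into droplets, lay between 7.81 and 8.72 (median 8.39) at 28 weeks and between 6.24 and 8.12 (median 7.54) at 12 weeks (0.97, unadjusted P = 0.000322 from limma). Here 6 of the 9 older mice were above every younger one. Lpin1, a phosphatidate phosphatase of triglyceride synthesis that also coactivates fatty acid oxidation genes, lay between 6.73 and 8.03 (median 7.21) at 28 weeks and between 6.07 and 6.89 (median 6.59) at 12 weeks (0.68, unadjusted P = 0.000620 from limma). The VLDL receptor gene Vldlr differed by 0.60, the monoglyceride lipase gene Mgll by 0.36 and Lpin2 by 0.33. Without replicate 3 of 12 weeks 9 members were higher, and with the clock phase as a covariate 3 were. Of 33 genes of fatty acid oxidation and PPARα, 5 were higher, beside the same 1.76% of all genes, and none was lower (median 0.11). The higher ones were Cyp4a14, Acot3, its neighbor and close relative Acot4 (0.54), the fatty aldehyde dehydrogenase Aldh3a2 (0.45) and the peroxisomal thiolase Acaa1b (0.31). Under the clock covariate 3 were higher. Aldh3a2 lay between 9.96 and 10.63 at 28 weeks and between 9.24 and 10.55 at 12 weeks, with 6 of 7 younger mice below every older one. In LF/HF mice Cyp4a14 differed by 2.70, Acot3 by 1.83, Acot4 by 1.05 and Aldh3a2 by 0.76, each past the adjusted p there.

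In bile acid synthesis the 2 key enzymes went in opposite directions. Cyp7a1, the rate-limiting enzyme, lay between 5.02 and 8.40 at 28 weeks and between 5.36 and 7.72 at 12 weeks (0.95, unadjusted P = 0.0413 from limma), and Cyp8b1, which sets the share of cholic acid, between 7.24 and 8.41 at 28 weeks and between 7.51 and 9.14 at 12 weeks (-0.54, unadjusted P = 0.0175 from limma). Replicate 1 of 28 weeks was the lowest of all mice in Cyp7a1, and 7 of the other 8 were above every younger mouse. Leaving out any 1 of 10 mice ended the call of Cyp7a1 (largest unadjusted P = 0.123 from limma), and leaving out replicate 1 of 12 weeks that of Cyp8b1 (0.0628). The basolateral exporter gene Abcc3 was higher (0.40). Of 24 apolipoprotein and VLDL genes 3 were lower and 1 was higher, beside 2.34% and 1.76% of all genes. The lower ones were Apobec1, which edits the Apob transcript, Apom, an HDL protein, and the sorting receptor Sort1. The higher one was the endothelial lipase gene Lipg (0.67). Apom lay between 7.78 and 8.32 at 28 weeks and between 8.13 and 8.84 at 12 weeks, with 8 of 9 older mice below every younger one (-0.48, adjusted p = 0.204 from limma). Apobec1 differed by -0.51 and Sort1 by -0.35, and in LF/HF offspring these 3 genes differed by -0.57, -0.61 and -0.79 in the order Apom, Apobec1, Sort1, each past the adjusted p there.

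Among complement, acute-phase and Kupffer cell genes more were lower than higher at 28 weeks. Of 28 complement genes 9 were lower and 1 was higher (median -0.15), beside 2.34% lower and 1.76% higher of all genes. Besides C6, C8a and C8b, the lower ones were C2, C9, the C1q chains C1qa and C1qb, the lectin Mbl1 and the anaphylatoxin receptor C3ar1. C2 lay between 6.80 and 7.23 (median 7.03) at 28 weeks and between 7.17 and 7.60 (median 7.34) at 12 weeks (-0.33, unadjusted P = 0.000642 from limma), and 8 of 9 older mice were below every younger one. C9 lay between 10.20 and 11.10 at 28 weeks and between 10.81 and 11.21 at 12 weeks (-0.34, unadjusted P = 0.00120 from limma). The calls of C1qa (-0.33), C1qb (-0.43), C3ar1 (-0.43) and Mbl1 (-0.28) ended without any 1 of 10, 8, 7 and 11 mice (largest unadjusted P = 0.204, 0.133, 0.259 and 0.132 from limma). The list counted 5 lower genes on plate 1 and 7 on plate 2, 6 without replicate 3 of 12 weeks, 5 without replicate 5 or 7 of 28 weeks or replicate 7 of 12 weeks and 4 with the clock phase as a covariate. Cfd, the protease factor D that adipocytes secrete in quantity, was the 1 higher gene. It lay between 2.78 and 5.37 (median 3.42) at 28 weeks and between 2.45 and 3.25 (median 2.57) at 12 weeks (0.85). The 11 adipocyte markers averaged 3.03 to 3.39 at 28 weeks and 2.92 to 3.19 at 12 weeks, and 2 of them met the criterion, Cfd and Nrg4 (0.78), while Adipoq differed by -0.04 and Plin1 by -0.01. Their part in the value of Cfd was not tested.

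Among 31 acute-phase genes 4 were lower, beside 2.34% of all genes, and none was higher (median -0.08). Saa1, a serum amyloid A protein of the acute phase, lay between 4.43 and 6.63 (median 5.34) at 28 weeks and between 5.49 and 8.87 (median 7.15) at 12 weeks, and 6 of 9 older mice were below every younger one. The difference was -1.68 (SE 0.36, adjusted p = 0.0690 from limma). Saa2, which is nearly identical in sequence so that probes can bind both, lay between 4.71 and 7.42 at 28 weeks and between 4.94 and 8.82 at 12 weeks (-1.36, adjusted p = 0.295 from limma). Orm2 differed by -0.61 and Orm1 by -0.31. On plate 1 and plate 2 Saa1 differed by -1.02 and -2.47, and Orm2 by 0.00 and -1.22, and the list counted 1 lower gene on plate 1 and 7 on plate 2. The call of Orm2 ended without any 1 of 8 mice (largest unadjusted P = 0.168 from limma), and that of Orm1 without replicate 6 of 12 weeks, where its fold change was below 1.2. Without replicate 3 of 28 weeks 2 genes of the list were higher and 5 lower, and without replicate 4, 6 or 7 of 12 weeks 1 was higher.

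Of 14 Kupffer cell markers 12 lay below 0 and 6 were lower by the criterion, beside 2.34% of all genes (median -0.31). Adgre1, which encodes the macrophage antigen F4/80, lay between 4.39 and 5.49 (median 4.78) at 28 weeks and between 4.81 and 6.05 (median 5.38) at 12 weeks (-0.53, unadjusted P = 0.00690 from limma). The complement receptor gene Vsig4, restricted to tissue macrophages, lay between 5.68 and 7.00 (median 6.26) at 28 weeks and between 6.41 and 7.40 (median 6.80) at 12 weeks (-0.48, unadjusted P = 0.00827 from limma). In Vsig4 7 of 9 older mice were below every younger one. Folr2 (-0.51), Clec4f (-0.33), C1qa (-0.33) and Mrc1 (-0.27) also met the criterion, whereas Timd4 at -0.27, Marco at -0.27 and Cd163 at 0.19 did not. In whole liver RNA, fewer Kupffer cells and less RNA of these genes per cell cannot be told apart. On plate 1 and plate 2 Adgre1 differed by -0.19 and -0.85 and Vsig4 by -0.19 and -0.80, with 1 lower marker on plate 1 and 8 on plate 2. Without replicate 5 of 28 weeks 4 markers were lower, and without replicate 2 of 12 weeks 10 were. As given above, the call of C1qa ended without any 1 of 10 mice. The mean of the list lay between 5.51 and 6.13 at 28 weeks and between 5.70 and 6.43 at 12 weeks. Of 21 markers of recruited macrophages none met the criterion.

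Several chaperones and foldases of the endoplasmic reticulum were lower at 28 weeks, with more of them past the criterion on plate 2 than on plate 1. Of 36 genes of the unfolded protein and integrated stress response 30 lay below 0, 7 were lower, beside 2.34% of all genes, and 1, Vldlr, was higher (median -0.17). The mean of the list lay between 6.51 and 6.85 at 28 weeks and between 6.74 and 7.01 at 12 weeks. Creld2, a secreted protein that this stress induces, lay between 6.36 and 7.75 at 28 weeks and between 7.01 and 8.87 at 12 weeks (-0.90, unadjusted P = 0.00277 from limma). Hspa5, the main chaperone of the endoplasmic reticulum (BiP), lay between 10.20 and 10.76 (median 10.47) at 28 weeks and between 10.48 and 11.30 (median 10.77) at 12 weeks (-0.39, unadjusted P = 0.00288 from limma). In Creld2 4 and in Hspa5 6 of the 9 older mice lay below every younger one. Manf, a neurotrophic factor retained in the endoplasmic reticulum, did not overlap, with 5.56 to 6.24 at 28 weeks and 6.26 to 6.91 at 12 weeks (-0.55, adjusted p = 0.314 from limma). Syvn1, the ubiquitin ligase that disposes of misfolded proteins, is no member of the list, lay between 6.33 and 6.92 at 28 weeks and between 7.04 and 7.60 at 12 weeks, and differed by -0.54 (adjusted p = 0.338 from limma). The other members were Sdf2l1 (-0.56), the asparagine synthetase gene Asns (-0.53), Hyou1 (-0.46) and the disulfide isomerase Pdia3 (-0.27). On plate 1 and plate 2 Creld2 differed by -0.45 and -1.50 and Hspa5 by -0.17 and -0.66, and 2 and 11 members were lower. Without replicate 7 of 12 weeks 4 were lower, without replicate 2 of 12 weeks 11, without replicate 3 of 12 weeks 10, and with the clock phase as a covariate 1. Sdf2l1 lost its call without replicate 7 of 12 weeks (unadjusted P = 0.0575 from limma), Asns without replicate 3 of 12 weeks (0.0536), and Hyou1 without any 1 of 8 mice (largest 0.101). Pdia3 lost it without any 1 of 5 mice, where its fold change was below 1.2. Of 25 heat shock proteins and chaperones 2 were lower, Hsph1 and Stip1 (-0.38), beside 2.34% of all genes. Without replicate 4 of 28 weeks 4 were, and on plate 1 and plate 2 alone 3 and 5.

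The promoters of Hspa5 and Creld2 are shown because both genes were lower and both carry the endoplasmic reticulum stress element (ERSE), CCAAT and CCACG with 9 bases of any kind between them, through which ATF6 and XBP1 are known to induce chaperones. Of the 36 genes of the list 32 had a window of 250 bases, and 7 of these (21.9%) held the element on either strand, beside 0.13% of 27025 genes. Hsp90b1, Pdia6, Calr, Canx and Dnajc3 held it too and did not meet the criterion. Since the list holds such chaperones by its choice, this share describes the list and not the age difference. A match shows no binding. In the windows chr2:34771840-34772089 (+) for Hspa5 and chr15:88819396-88819645 (+) for Creld2, on build GRCm38.p6, the element lies 65 and 126 bases before the start of the gene, in Creld2 as its reverse complement, and is printed in capitals.
Hspa5: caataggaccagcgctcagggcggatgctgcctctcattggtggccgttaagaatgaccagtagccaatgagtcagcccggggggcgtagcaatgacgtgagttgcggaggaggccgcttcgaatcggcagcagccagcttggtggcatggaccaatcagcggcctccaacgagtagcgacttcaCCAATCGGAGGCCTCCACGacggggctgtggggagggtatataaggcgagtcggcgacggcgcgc
Creld2: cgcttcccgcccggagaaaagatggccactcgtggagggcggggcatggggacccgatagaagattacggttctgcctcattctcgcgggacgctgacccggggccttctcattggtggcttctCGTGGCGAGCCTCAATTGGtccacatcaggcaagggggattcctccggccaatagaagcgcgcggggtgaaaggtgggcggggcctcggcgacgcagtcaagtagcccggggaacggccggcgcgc

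Immunoglobulin genes were higher at 28 weeks, and 2 older mice had far more than the others. Of 16 B and plasma cell markers 4 were higher, beside 1.76% of all genes, and none was lower (median 0.13). Plate 1 alone gave 4 higher genes and plate 2 alone 2. The heavy chain of IgM, Ighm, lay between 5.46 and 10.10 (median 6.01) at 28 weeks and between 3.80 and 5.96 (median 4.47) at 12 weeks (1.87, unadjusted P = 0.000979 from limma). Replicates 2 and 5 of 28 weeks were at 10.10 and 9.61, and the other 7 lay between 5.46 and 6.40. The same 2 mice had Jchain, which joins IgM and IgA into polymers, at 5.06 and 5.0, beside 2.20 to 2.90 in the other older mice and 2.05 to 2.57 in the younger ones (0.78). Iglv1, a light chain segment, differed by 1.01, and without replicate 2 of 28 weeks its call ended (unadjusted P = 0.0511 from limma). The B cell antigen CD20 gene Ms4a1 was at low intensity, below the median gene level of 3.10 in every mouse of both ages. It lay between 2.20 and 3.09 at 28 weeks and between 1.87 and 2.28 at 12 weeks (0.54, unadjusted P = 0.000218 from limma). Of 7 younger mice 6 were below every older one. Of the 16 markers 12 lay above 0 and 4 below, which were Pax5 (-0.13), Blk (-0.19), Bank1 (-0.11) and Xbp1 (-0.11). Outside the list, the IgG2b heavy chain Ighg2b differed by 1.38 and a kappa chain variable segment by 1.23, both highest in replicate 2 of 28 weeks at 6.40 and 5.87. Probes for immunoglobulin segments can bind related segments. The mean of the list was 4.09 and 3.90 in replicates 2 and 5 of 28 weeks, 3.04 to 3.27 in the other older mice and 2.92 to 3.18 in the younger ones. Of 27 T and NK cell markers Cd8a was higher (0.35), and Klrd1 (-0.28) and Tbx21 (-0.27) were lower, beside 1.76% and 2.34% of all genes. Without replicate 3 of 12 weeks 2 were higher and 1 lower. Of 13 neutrophil markers none met the criterion.

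**Figure D4:**
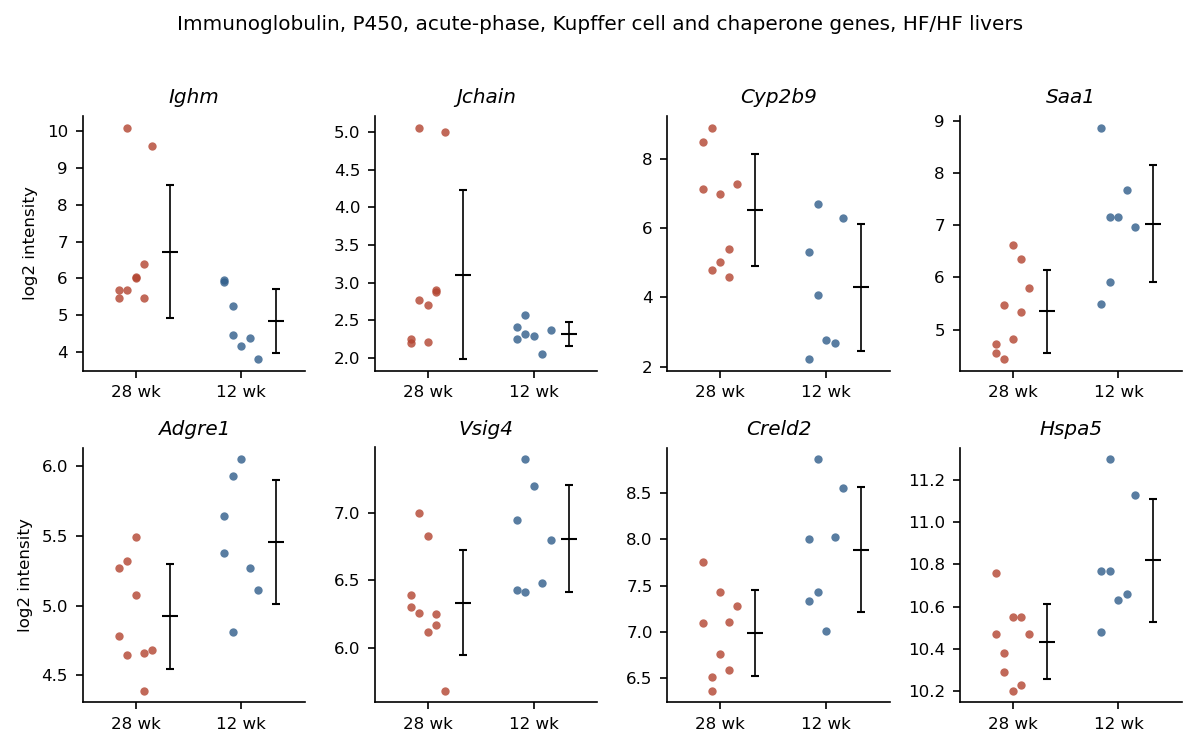
Log2 intensity (y axis) of Ighm, Jchain, Cyp2b9, Saa1, Adgre1, Vsig4, Creld2 and Hspa5 in HF/HF livers of 28 weeks (left) and 12 weeks (right), 1 point per mouse with the mean and SD of each group. The y axes differ between panels and do not start at 0. Ighm and Jchain show 2 older mice far above the others, and the other panels show overlapping ages.

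Other lists held few genes past the criterion, by which 1.76% of all genes were higher and 2.34% lower. Of 23 genes that hepatocytes around the central vein express 5 were higher, the glutamine synthetase gene Glul (0.28), Oat (0.31), Slc1a2 (0.41), Rnf43 (0.38) and Ahr (0.41), and none was lower. When single mice were left out between 2, without replicate 4 of 12 weeks, and 7 were, with 3 without replicate 3 of 12 weeks, and on plate 1 and plate 2 alone 1 and 2 were. Glutathione transferase Gstt3 lay between 5.96 and 7.16 at 28 weeks and between 4.36 and 6.23 at 12 weeks (a difference of 1.0, adjusted p = 0.129 from limma), and the sulfotransferase Sult5a1 between 3.49 and 4.48 at 28 weeks and between 3.65 and 6.00 at 12 weeks, with 6 of 7 younger mice above every older one (-0.78, adjusted p = 0.295 from limma). Of 22 genes of secreted liver hormones 4 were lower, beside 2.34% of all genes. They were Igfbp1, the adropin gene Enho (-0.58), the follistatin gene Fst (-0.45) and Orm1. Of these, Fst lost its call without replicate 3 of 12 weeks (unadjusted P = 0.0738 from limma). Members of that list lower on plate 1 and plate 2 alone numbered 5 and 1, and under the clock covariate 2. Of 32 Nrf2 targets 2 were higher (1.76% of all genes were), Me1 and Abcc3, and 8 without replicate 3 of 12 weeks. Without replicate 4 or 7 of 12 weeks 1 was. None of 44 cell cycle genes met the criterion (median -0.12), and the median was 0.06 without replicate 3 of 12 weeks, where 2 genes were higher. None of 20 skeletal muscle markers met it, and their median was -0.24 with replicate 3 of 12 weeks and -0.02 without it. None of 74 mitochondrial ribosomal proteins, 34 proteasome subunits or 23 fetal and imprinted growth genes met it, with 1 of the growth genes higher without replicate 3 of 12 weeks.

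The comparison with LF/HF offspring asks whether the age difference depended on the parental diet, and no gene passed the adjusted p for it (0 genes, smallest adjusted p = 0.749 from limma). By the study criterion 884 genes (4.19%) differed in their age difference, 405 with a larger value in HF/HF (1.92%) and 479 with a smaller one (2.27%). The unadjusted P of 1009 genes (4.78%) was under 0.05, and 1056 would be if no gene differed. In LF/HF offspring themselves 166 genes (0.786%) passed the adjusted p and 1525 (7.22%) the criterion between 28 and 12 weeks. The larger number of calls in LF/HF than in HF/HF offspring is no test of a difference. LF/HF replicate 1 of 12 weeks had a skeletal muscle marker mean of 8.45, beside 2.36 to 2.69 in the others of its group. LF/HF replicate 8 of 28 weeks had one of 5.96, beside 2.42 to 2.68 in the others of its group. Without these 2 mice and HF/HF replicate 3 of 12 weeks, 953 genes met the criterion for the difference between the age differences and none passed the adjusted p. Cdh18, Tnfaip2, Selenbp2, Cdh1 and C8b passed the adjusted p in LF/HF offspring too, with differences of 1.04, -0.84, -2.20, -1.24 and -0.59. Itga5 (-0.23) and Mpzl1 (-0.12) did not, and the differences between their age differences were -0.43 (unadjusted P = 0.0140 from limma) and -0.49 (unadjusted P = 0.00608 from limma), with adjusted p-values of 0.974. Tox (0.56) and Hsph1 (-0.40) were at an adjusted p of 0.0567 and 0.0629 there.

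The smallest unadjusted P for the difference between the age differences was that of Rapgef4, an exchange factor that cAMP activates. It lay between 7.68 and 8.34 at 28 weeks and between 7.32 and 8.01 at 12 weeks in HF/HF offspring, a difference of 0.14, against -0.50 in LF/HF offspring (0.64 apart, unadjusted P = 8.37e-05, adjusted p = 0.884 from limma). Tbc1d8, Lpin1 and Polr1b lay in the same direction, with 0.55, 0.94 and 0.61. Lpin1 differed by 0.68 in HF/HF and by -0.26 in LF/HF offspring (unadjusted P = 0.000784, adjusted p = 0.974 from limma). In the opposite direction were Socs5 (-0.67), Ccdc12 (-0.66), Lrat (-0.92), Dcaf4 (-0.62) and Pebp1 (-0.45). Lrat, which esterifies retinol and marks stellate cells, lay between 5.44 and 6.39 at 28 weeks and between 5.83 and 7.40 at 12 weeks in HF/HF offspring, a difference of -0.53, against 0.38 in LF/HF offspring (unadjusted P = 0.00110, adjusted p = 0.974 from limma). None of these genes can be called particular to either parental diet.

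**Figure D5:**
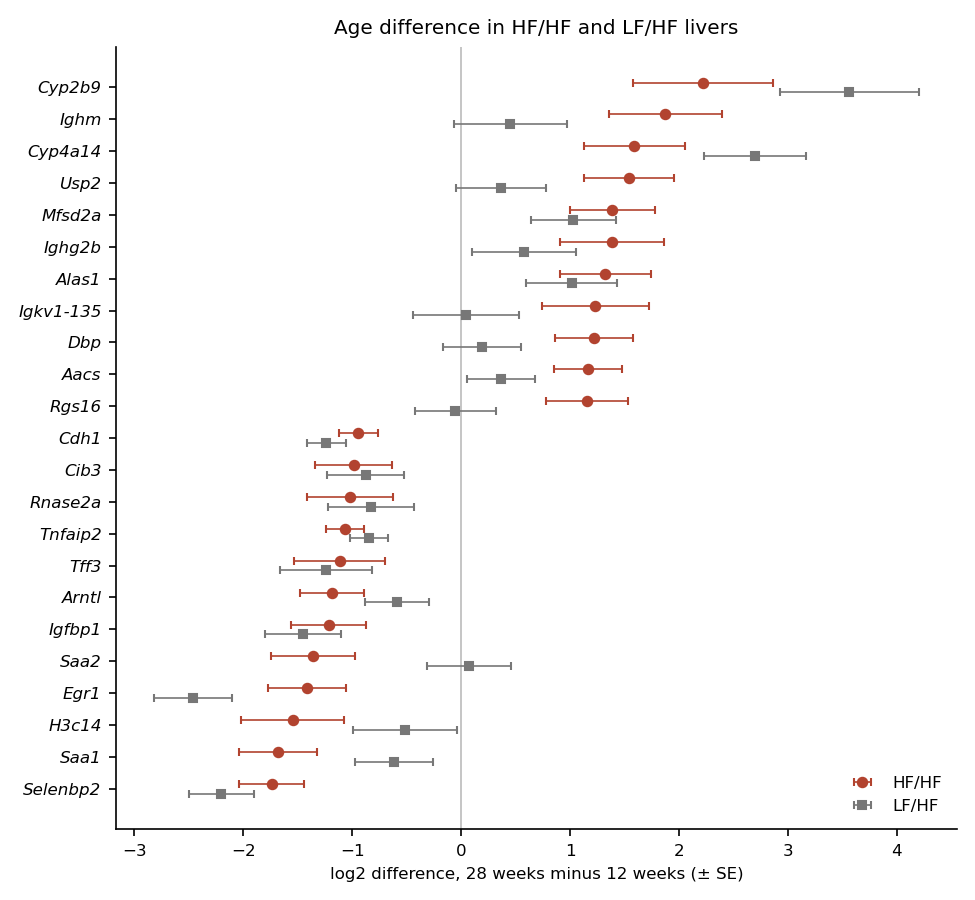
Log2 difference of 28 minus 12 weeks (x axis, with SE) in HF/HF and in LF/HF livers for the named genes with the highest and the lowest HF/HF values. The genes were chosen by their HF/HF value, so their sizes in the 2 groups of offspring cannot be compared. The HF/HF values run from 2.22 for Cyp2b9 to -1.74 for Selenbp2.

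Of the genes that the study followed for expression, Aacs and Lpin1 were higher at 28 weeks and Saa1 lower, as given above. Il1r1, the receptor of interleukin-1, lay between 6.12 and 7.54 (median 6.82) at 28 weeks and between 6.34 and 6.72 (median 6.53) at 12 weeks, with an SD of 0.42 at 28 weeks and 0.13 at 12 weeks. Its difference was 0.24 and did not meet the criterion, and in LF/HF offspring it was -0.53 (0.77 apart, unadjusted P = 0.00145, adjusted p = 0.974 from limma). Cd163, a scavenger receptor of macrophages, differed by 0.19 and Plaat3, named Pla2g16 in the study, by 0.04, and neither met the criterion. Actb, a housekeeping gene in the study, differed by -0.09. In LF/HF offspring Aacs differed by 0.36 and Saa1 by -0.62, and the differences between the age differences were 0.80 (unadjusted P = 0.0795 from limma) and -1.06 (unadjusted P = 0.0435 from limma), with an adjusted p of 0.974 for both.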

How the data were processed

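Livers of 32 offspring were measured, 1 array per mouse (Affymetrix Mouse Gene 1.1 ST). The authors labelled 100 ng of RNA per liver, normalized the signals by the robust multichip average (RMA) in the MADMAX pipeline, and deposited linear intensity values of 21115 probe sets. Software versions and the genome build are not given in the sources used here. Groups and replicate numbers came from the sample labels. A workbook of the same values, deposited with array names, differed from them by at most 7.15e-10 on the log2 scale and was used for the plates only, since its columns name a group but no mouse. The authors' fold changes, p-values and q-values were not used.

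The log2 of the deposited intensities was taken, with no filter on low values. Gene names came from the platform annotation (20405 probe sets), from RefSeq (527) or from the file (183), and 21113 genes were tested in R 4.3.3 with limma 3.58.1 (lmFit, 1 mean per group over 32 arrays, and eBayes with an intensity trend, two-sided). The study's methods describe a paired test, whereas the pairs are not given. The Benjamini-Hochberg adjustment ran over the 21113 genes. RMA pulls arrays to 1 distribution, so a shift of all genes together would not be seen. The number of mice limits the precision.

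Gene lists (55 lists, 1412 members measured) hold genes known from the liver literature in general and are described by counts and medians with no set test. The members and lists were chosen with earlier results of these data known. Named genes were the 12 highest and 12 lowest differences past a call rule (without predicted genes and genes below the median level at both ages), up to 4 members of smallest p per list, the 5 genes on each side with the smallest P for a difference between the age differences, cell type markers and the genes the study names. The genes whose ages did not overlap and the further list members given with values were named after their values were seen. A few genes that these rules select are not reported here. Promoter windows came from RefSeq, build GRCm38.p6. The fits were tested on simulated data. Alternatives were other priors, normalizations, filters and thresholds, array weights, the replicate number as a block, plates, the clock phase as a covariate, and each mouse left out. Figures were drawn with matplotlib 3.10.9.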

Additional observations from a re-analysis of the deposited data

Results flagged for a closer look

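In 113 genes and 18 lists, each examined at both ages of HF/HF offspring, 21 groups held 1 mouse far from the others by Dixon's test, where about 5% of all groups are expected by chance. HF/HF replicate 2 of 28 weeks accounted for 8 of them. It was the lowest of its group in Cdh1 (5.94), Cldn1 (7.78) and C8a (9.25), and the highest in Bhlhe40 (7.60), Acot4 (7.67), Gstt3 (7.16), Lipg (6.04) and the mean of the clock output genes (6.64). The same mouse had the highest Ighm and the lowest clock phase of its group. HF/HF replicate 3 of 12 weeks accounted for 6, with the lowest mean of the male-biased genes (7.60) and the highest of PPARγ and lipid droplet genes (6.15), Nrf2 targets (7.94), cell cycle genes (3.95), skeletal muscle markers (4.01) and C3ar1 (6.18).

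The other 28-week mice were replicate 4, highest in Hsph1 (6.71) and Rapgef4 (8.34), replicate 3, lowest in Socs5 (2.99) and highest in the mean of the cell cycle genes (3.30), and replicate 1, lowest in Cyp7a1 (5.02). The other 12-week mice were replicate 1, lowest in Mrps23 (5.63), and replicate 7, highest in Syvn1 (7.60). No difference between the age differences of HF/HF and LF/HF offspring passed the adjusted p.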

How the results depend on the processing

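The count of genes past the adjusted p (10) was 16 among genes at or above the median level, 1 with the clock phase as a covariate, 0 within plate 1 and 0 within plate 2, where 1164 and 1097 genes met the study criterion, 4 at an adjusted p under 0.01 and 16 under 0.10. Without single HF/HF mice it was 4 to 15. With the replicate number as a block 3 genes passed and 848 met the criterion. Mice of the same number need not be related, since their deviations correlated between -0.0589 and 0.344 and 1 of 7 pairs was best with its own number. The study criterion (865 genes) gave 111 genes at a fold change over 1.5 and 812 to 998 without single mice. With the clock phase as a covariate it gave 866, of which 394 were among the 865. Centring each array on its median changed the share of higher genes to 52%, beside 43%. For the difference between the age differences, the adjusted p gave 0 genes under every alternative, and the criterion (884) gave 464 among genes at or above the median level, 116 at a fold change over 1.5 and 779 to 1056 without single mice. The causes were not tested. Of 4043 checks of 145 called genes, 3376 kept direction and side of the threshold, 659 no longer passed and 8 changed sign. With the clock phase as a covariate, partly built from them, Per2 was at -0.24, Per3 at -0.13, Tef at -0.13 and Bhlhe41 at -0.035, beside Mbl1 at 0.0026. Within plate 1 Scarna8 was at -0.013 and Ugt2b38 at 0.023, and within plate 2 Asns at 0.056. Litter could not be modelled.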
